A study of Mus musculus with 4 samples.

Results

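Genes whose products guide T cells and NK cells into tissue, 9 in number, were followed through every cell type and tumour: the ligands Cxcl9, Cxcl10, Cxcl16, Ccl5, Xcl1, Ccl22 and Ccl17, and the receptors Cxcr3 and Cxcr6. They were listed by name for their known role, with earlier results of these data in view, and all 9 were found among the 32285 genes measured. The questions were which cells held each transcript, how its level differed between tumours, and where its receptor was found.

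The data came from droplet single-cell RNA sequencing of CD45+ cells sorted from mouse melanomas grown from YUMM1.7OVA cells, which carry the model antigen ovalbumin. All hosts were Rag2-/- mice, which make no T or B cells of their own, and all received adoptive cell transfer (ACT) of OT-1 CD8+ T cells, which recognise an ovalbumin peptide, on day 7. Tumours were taken on day 10, 72 h later, so any T cell in these data is a transferred cell. The labels give 1 sample for each of 4 groups. NTT was grown from a line naive to targeted therapy, labelled as clone 3A6. RTT was grown from a line resistant to that therapy, labelled as clone 2B12. RTT_ROSA26 was grown from resistant cells that carry a control guide for the Rosa26 locus. RTT_PTGS12KO was grown from resistant cells in which Ptgs1 and Ptgs2, the genes of the prostaglandin synthases COX1 and COX2, were knocked out. The edit lies in the cancer cells, which the CD45+ sort removes, so it could not be checked in these libraries. The labels state 1 tumour per condition while figure legends of the study describe pooled tumours, and which of these holds was not settled here.

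Chemokines are small secreted proteins that bind G protein-coupled receptors on leukocytes and direct their migration. CXCL9 and CXCL10 are induced by interferon and bind CXCR3, which effector T cells and NK cells carry. CXCL16 is made as a membrane protein, is released by the proteases ADAM10 and ADAM17, and binds CXCR6 on T cells that settle in tissue. CCL5 binds receptors that include CCR1 and CCR3 and is made by T cells, NK cells and activated myeloid cells. XCL1 is made by NK cells and CD8+ T cells and attracts cDC1s, the cross-presenting dendritic cells, through XCR1. CCL17 and CCL22 are made by dendritic cells and bind CCR4, which regulatory and helper T cells carry.

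All 9 genes are annotated as protein coding in GRCm38. Cxcl9 (chromosome 5, 92321347 to 92328079) and Cxcl10 (chromosome 5, 92346638 to 92348889) both lie on the minus strand, with 18558 bases between them. Ccl22 (chromosome 8, 94745590 to 94751699) and Ccl17 (chromosome 8, 94810453 to 94812036) both lie on the plus strand, 58753 bases apart. Cxcl16 (70453983 to 70459984) and Ccl5 (83525778 to 83530518) lie on the minus strand of chromosome 11. Xcl1 lies on the minus strand of chromosome 1 (164931644 to 164935527), Cxcr3 on that of the X chromosome (101731535 to 101734269) and Cxcr6 on the plus strand of chromosome 9 (123806475 to 123811760). Cxcl10 overlaps Art3, Cxcl16 overlaps Zmynd15, Xcl1 overlaps Gm20743 and Cxcr6 overlaps Fyco1, in each case on the opposite strand. Whether counting used the strand is not given in the sources used here.

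RefSeq promoter windows (GRCm38.p6, 250 bases before the start of transcription) were at hand for 7 of the 9 genes, Cxcl16 and Ccl5 excepted. The RefSeq start is not always that of the GENCODE annotation from which the gene coordinates come: the windows of Ccl22, Cxcr3, Xcl1 and Cxcr6 reach past the GENCODE gene start. The windows of the neighbouring ligand pairs are printed because each pair was detected together in single cells. Sequences run 5′ to 3′ on the strand of the gene, and capitals mark the letters of a motif match.
Cxcl9, chr5:92328080-92328329, minus strand: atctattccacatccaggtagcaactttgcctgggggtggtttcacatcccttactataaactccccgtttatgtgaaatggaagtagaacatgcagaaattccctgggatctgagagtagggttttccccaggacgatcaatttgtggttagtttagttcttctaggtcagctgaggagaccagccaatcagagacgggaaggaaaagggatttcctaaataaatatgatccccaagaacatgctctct
Cxcl10, chr5:92348890-92349139, minus strand: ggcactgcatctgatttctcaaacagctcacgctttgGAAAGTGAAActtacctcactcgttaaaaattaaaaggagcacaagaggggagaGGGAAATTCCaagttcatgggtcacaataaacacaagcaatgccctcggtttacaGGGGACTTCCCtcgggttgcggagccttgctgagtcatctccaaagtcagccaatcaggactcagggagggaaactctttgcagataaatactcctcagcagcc
Ccl22, chr8:94745434-94745683, plus strand: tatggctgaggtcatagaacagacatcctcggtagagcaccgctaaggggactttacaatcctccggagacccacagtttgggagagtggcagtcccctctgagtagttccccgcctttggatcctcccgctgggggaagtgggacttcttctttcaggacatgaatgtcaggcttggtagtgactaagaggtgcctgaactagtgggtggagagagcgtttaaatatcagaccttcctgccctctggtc
Ccl17, chr8:94810203-94810452, plus strand: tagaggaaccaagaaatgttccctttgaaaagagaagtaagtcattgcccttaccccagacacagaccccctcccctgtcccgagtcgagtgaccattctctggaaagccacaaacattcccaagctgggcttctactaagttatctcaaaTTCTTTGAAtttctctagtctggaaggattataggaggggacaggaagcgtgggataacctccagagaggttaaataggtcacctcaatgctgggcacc
Both strands were searched for the core of the interferon-stimulated response element (ISRE, a pair of GAAA runs with 2 bases between them), the interferon-gamma activated site (GAS, TTCNNNGAA) and the NF-kB consensus. The window of Cxcl10 held 4 matches, with positions counted back from the start of transcription. An ISRE core stood at -213 to -204 and NF-kB matches stood at -159 to -150, -104 to -95 and -103 to -94, the last pair overlapping. The window of Ccl17 held 1 match, a GAS at -99 to -91, which matches on both strands. No match was found in the windows of Cxcl9, Ccl22, Xcl1, Cxcr3 and Cxcr6. Among 32851 windows of the same length, 2.98% held the ISRE core, 7.02% the GAS and 7.25% the NF-kB consensus, so a match describes the letters only.

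The 4 samples were tagged with oligos, pooled and run in 3 loads, and held 33368 cells in all, from 6836 to 10296 per sample. Between 69332486 and 146829369 unique molecular identifiers (UMIs, counted molecules) were obtained per sample, with a median per cell of 7293 in NTT and 12219 to 13280 in the others. Of the cell barcodes, 98 occurred in more than 1 load and 0 were shared within a load. Cells carried 17 names given by the authors, which were pooled into CCR7+ DCs (named DC3), cDC1s, cDC2s, monocytes, macrophages, NK and T cells and smaller classes. Samples shared the droplets of each load, so RNA free in the suspension was common to all 4, and doublets of cells of 1 sample were not removed. Monocytes were 6619 cells in NTT and 522 in RTT, and 144 in RTT_ROSA26 and 4015 in RTT_PTGS12KO, and macrophages were 308, 6734, 5993 and 5207 cells in the same order. NK cells numbered 709, 13, 26 and 306, and T cells 93, 1, 2 and 45. All 7 NK cell, all 7 T cell and all 6 CCR7+ DC markers were highest in the class they mark, but only 2 of 9 monocyte and 4 of 9 macrophage markers were. The other 5 macrophage markers were highest in a class that the authors named Macro, which was kept apart. The names were made from expression that includes the 9 genes, so their levels by cell type are a description.

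Levels are given as CPM, the UMIs of a gene per 1000000 UMIs of the cells summed. Each group is a single sample, so a difference cannot be held against a replicate spread and none was tested. All 95% intervals (exact Poisson for levels, exact conditional binomial for ratios, exact Clopper-Pearson for shares) cover counting error only, not the spread between mice. Where 0 was counted, the upper limit is given as 3 counts. The difference between RTT_ROSA26 and RTT, 2 resistant tumours that keep both prostaglandin synthase genes, is given beside the contrasts over all cells and in the main classes as a yardstick. The comparison of NTT with RTT is called the naive contrast, and that of RTT_PTGS12KO with RTT_ROSA26 the knockout contrast. The yardstick shares RTT with the naive contrast and RTT_ROSA26 with the knockout contrast, so the contrasts are not independent of each other.

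Over all CD45+ cells, the CXCR3 ligands Cxcl9 and Cxcl10, the T cell chemoattractant Ccl5 and the lymphocyte chemokine Xcl1 stood above RTT in NTT and above RTT_ROSA26 in RTT_PTGS12KO. Cxcl16 was nearly level across the 4 tumours. A gene was counted as different at a ratio of at least 2-fold either way, among genes whose mean over the samples compared was 10 CPM or more. For NTT against RTT, 5 of the 9 genes passed that minimum and 4 were at least 2-fold higher, where 14.1% of 6999 genes differed either way (7.44% higher and 6.66% lower). For RTT_PTGS12KO against RTT_ROSA26, 5 passed and 4 were higher, where 5.76% of 7083 genes differed (3.68% higher and 2.08% lower). For RTT_ROSA26 against RTT, 4 passed and 1, Cxcl9, was at least 2-fold lower in RTT_ROSA26, where 1.6% of 7142 genes differed (0.504% higher and 1.09% lower). The median log2 ratio of the members that passed was 3.15, 3.15 and -0.45 in the 3 contrasts, against -0.09, -0.13 and 0.06 over all genes tested. Ccl22, Ccl17, Cxcr3 and Cxcr6 stayed under the minimum in every contrast over all cells, and Xcl1 in the last. A sum over all cells mixes the number of cells of a type with the level in each.

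**Figure D1:**
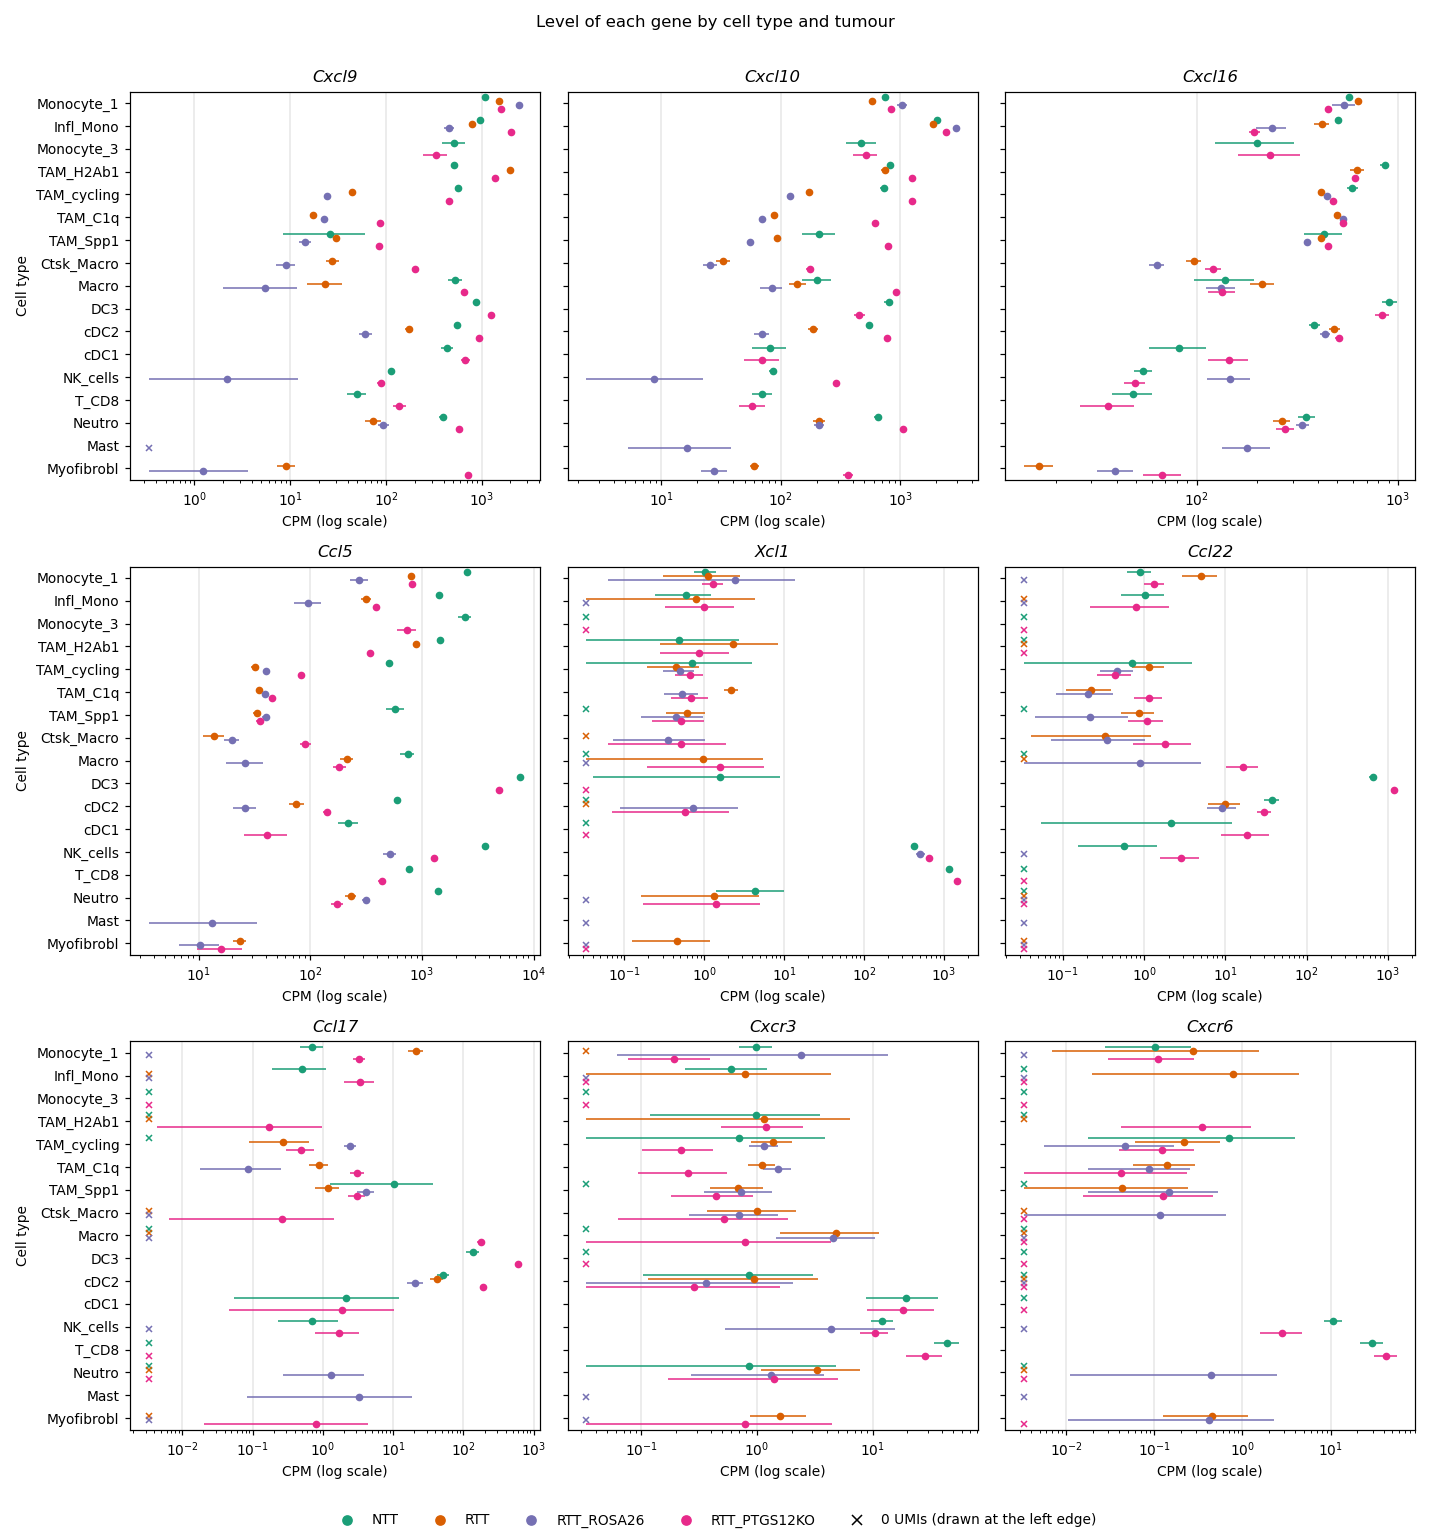
Level of each gene (CPM, log scale) in each of the 17 cell type names, with 1 point per tumour and bars for the exact 95% Poisson interval. Points are drawn only where a tumour held at least 20 cells of a type, and a cross at the left edge marks 0 UMIs. Cxcl9 lies far to the left in TAM_C1q, TAM_Spp1 and TAM_cycling of RTT and RTT_ROSA26, Xcl1 stands out in NK_cells and T_CD8, and Ccl22 and Ccl17 stand out in DC3 and cDC2.

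Cxcl9, an interferon-induced ligand of CXCR3, reached 864 CPM over all cells of NTT (857 to 871) and 97.7 of RTT (95.9 to 99.5), and 36.8 of RTT_ROSA26 (35.7 to 37.9) and 733 of RTT_PTGS12KO (729 to 738). The 3 loads of the same cells gave 828 to 907 CPM in NTT and 77.5 to 113 in RTT, and 32.6 to 41.8 in RTT_ROSA26 and 689 to 787 in RTT_PTGS12KO. NTT and RTT_PTGS12KO were high and both other tumours low, and no load of a high tumour overlapped one of a low tumour. The log2 ratio was 3.15 (3.12 to 3.17) for the naive contrast, 4.32 (4.27 to 4.36) for the knockout contrast and -1.41 (-1.46 to -1.36) for the yardstick. The resistant tumours that keep the targeted genes thus differed from each other, 2.66-fold, by less than the 19.9-fold between RTT_PTGS12KO and RTT_ROSA26.

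Monocytes held 90.6% of the Cxcl9 UMIs of NTT and 56.9% of those of RTT, and 31.3% of those of RTT_ROSA26 and 64.1% of those of RTT_PTGS12KO. Macrophages held 3.29%, 37.1%, 57.7% and 28.7%. By the authors' names, monocytes were thus the main source in 3 tumours although they were only 6.55% of the cells of RTT, and macrophages led in RTT_ROSA26. These shares rest on the names: marker UMIs, as set out below, place 357 of the 522 monocytes of RTT with the macrophages. The same holds for 2299 of the 6619 monocytes of NTT and 1836 of the 4015 of RTT_PTGS12KO. Cxcl9 was concentrated in few cells of the low tumours, where the top 10% of cells held 99.4% of its UMIs in RTT and 100% in RTT_ROSA26, against 60.6% in NTT and 70.4% in RTT_PTGS12KO.

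**Figure D2:**
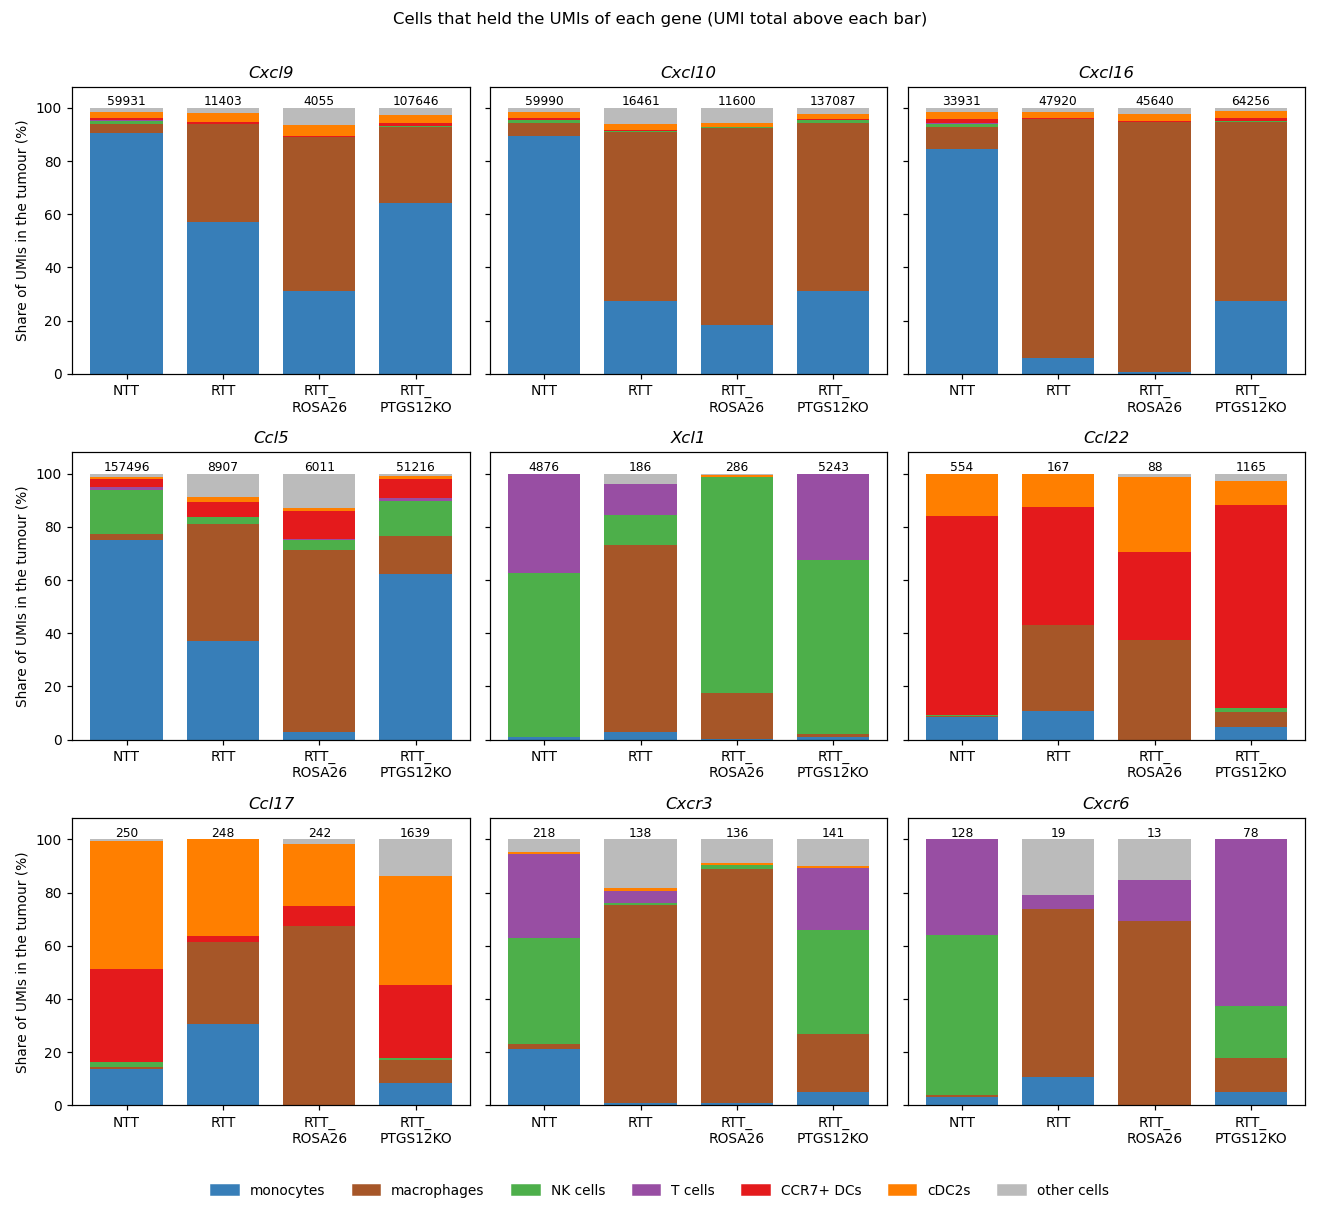
Share of each gene's UMIs (%) held by CCR7+ DCs, cDC2s, monocytes, macrophages, NK cells, T cells and all other cells in each tumour, with the total UMIs of the gene above each bar. Monocytes hold most Cxcl9, Cxcl10, Cxcl16 and Ccl5 in NTT, macrophages hold most Cxcl16 in the other tumours, and NK and T cells hold nearly all Xcl1 in NTT and RTT_PTGS12KO.

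Within macrophages, Cxcl9 stood at 484 CPM in NTT and 43.3 in RTT, and 23.5 in RTT_ROSA26 and 344 in RTT_PTGS12KO, the same order as over all cells. The log2 ratio within macrophages was 3.48 (3.41 to 3.56) for the naive contrast, 3.87 (3.81 to 3.93) for the knockout contrast and -0.88 (-0.96 to -0.81) for the yardstick. The 9 monocyte markers, all detected, summed to 1946 CPM in the macrophages of NTT and 394 in those of RTT, and to 382 for RTT_ROSA26 and 725 for the knockout, so they were high in the same tumours, and their part in the Cxcl9 level was not tested. The names that make up the macrophages differ between tumours: TAM_H2Ab1 was 62.3% of them in NTT and 0.936% in RTT, where TAM_C1q was 50.7% and TAM_Spp1 30.5%. Single names were therefore compared as well. In TAM_cycling, which held 79 cells of NTT and 873 of RTT, and 1834 of RTT_ROSA26 and 1832 of RTT_PTGS12KO, Cxcl9 stood at 563, 44.3, 24.1 and 457 CPM. Its log2 ratio there was 3.67 (3.53 to 3.81) for the naive contrast and 4.25 (4.15 to 4.34) for the knockout contrast, beside -0.88 (-1.01 to -0.74) for the yardstick. Lower levels were found in TAM_C1q, at 17.4 CPM in RTT, 22.4 in RTT_ROSA26 and 86.9 in RTT_PTGS12KO, a log2 ratio for the knockout of 1.96 (1.84 to 2.08). TAM_Spp1 stood at 30.1, 14.2 and 85.4 CPM in the same tumours, a log2 ratio of 2.59 (2.37 to 2.81), but the 20 such cells of NTT stood at 25.8 CPM, so the naive contrast was -0.23 (-1.85 to 1.00) there. The yardstick was 0.37 in TAM_C1q and -1.08 in TAM_Spp1. Neither name stood above the NK cells of RTT_PTGS12KO, and TAM_Spp1 did not in NTT, though NK cells should lack Cxcl9. The ratios in these names are therefore not set apart from that background, whose levels are given below. TAM_H2Ab1, named for an MHC class II gene, went the other way in the naive contrast, at -1.93 (-2.04 to -1.82), with Cxcl9 at 518 CPM in NTT, 1972 in the 63 cells of RTT and 1387 in RTT_PTGS12KO, and 267 UMIs in the 11 cells of RTT_ROSA26.

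Within monocytes, Cxcl9 was high in all 4 tumours, at 1052 CPM in NTT and 1324 in RTT, and 1265 in RTT_ROSA26 and 1656 in RTT_PTGS12KO. This gave log2 ratios of -0.33 (-0.37 to -0.29) for the naive contrast, 0.39 (0.31 to 0.47) for the knockout contrast and -0.07 (-0.15 to 0.02) for the yardstick, so the class as a whole stayed under 2-fold. Its names went opposite ways for the knockout, with a log2 ratio of 2.16 (1.98 to 2.34) in Infl_Mono and -0.60 (-0.69 to -0.51) in Monocyte_1, and the yardstick there was -0.80 and 0.69. These values also rest on which cells are called monocytes. When each monocyte or macrophage was instead assigned to the marker list with the larger part of its UMIs, 2299 of the 6619 monocytes of NTT and 357 of the 522 of RTT moved to the macrophages, as did 50 of the 144 of RTT_ROSA26 and 1836 of the 4015 of RTT_PTGS12KO. The cells named monocytes held 5516, 15615, 9630.5 and 6566 CPM of the summed macrophage markers in that order, and 7817, 3537, 7581 and 5909 CPM of the summed monocyte markers, so in RTT the macrophage markers stood far above the monocyte markers. With this placement the ratios became 0.14, 2.80 and -1.97, so Cxcl9 then differed by over 2-fold in the knockout contrast and the yardstick. In RTT_ROSA26 the 54 Monocyte_1 cells stood at 2439.7 CPM and the 86 Infl_Mono cells at 456.

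Each cell was thinned to 3000 UMIs to compare the share of cells with a UMI, which left out 162, 10, 6 and 65 monocytes and 2, 26, 38 and 12 macrophages of NTT, RTT, RTT_ROSA26 and RTT_PTGS12KO. Cxcl9 was then found in 51.0%, 40.4%, 33.3% and 61.1% of monocytes in that order, and in 60.7%, 47.7%, 37.5% and 72.1% before thinning. In macrophages it was found in 35.6% of cells in NTT and 2.95% in RTT, and 2.25% in RTT_ROSA26 and 18.4% in RTT_PTGS12KO (53.2%, 8.02%, 7.04% and 33.9% before thinning). NK cells, which should lack it, gave 7.10% in NTT, 4.35% in RTT_ROSA26 and 6.31% in RTT_PTGS12KO. The thinned shares in macrophages of RTT and RTT_ROSA26 are thus no higher than this background, and nothing is read from them. By level, NK cells held 114 CPM of Cxcl9 in NTT, 2.17 in RTT_ROSA26, from 1 UMI, and 88.9 in RTT_PTGS12KO, beside 484, 23.5 and 344 CPM in the macrophages of the same tumours, and 8 UMIs were counted in the 13 NK cells of RTT. The NK levels of NTT and the knockout thus lie above the macrophage levels of RTT and RTT_ROSA26. Among single names, TAM_C1q (86.9 CPM) and TAM_Spp1 (85.4 CPM) of the knockout did not exceed its NK level. Nor did the 20 TAM_Spp1 cells of NTT, at 25.8 CPM. Of the Cxcl9 UMIs of RTT macrophages, 1705 of the 4235 lay in the 63 TAM_H2Ab1 cells. Median UMIs per cell were 11598 to 15570 in macrophages and 7669, 11528 and 15524 in the NK cells of NTT, RTT_ROSA26 and RTT_PTGS12KO.

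The same tumours were high and low in cDC2s and neutrophils. In cDC2s, Cxcl9 stood at 559 CPM in NTT and 174 in RTT, and 60.9 in RTT_ROSA26 and 929 in RTT_PTGS12KO, with a log2 ratio of 1.68 (1.51 to 1.85) for the naive contrast, 3.93 (3.71 to 4.16) for the knockout and -1.52 (-1.79 to -1.25) for the yardstick. The summed monocyte markers in cDC2s were 4978.5, 801, 784 and 2408 CPM in the same order, high in the same tumours, and their part was not tested. In neutrophils it stood at 394, 73.7, 94.1 and 579.8 CPM, with a log2 ratio of 2.62 (2.41 to 2.85) for the knockout and 0.35 (0.014 to 0.70) for the yardstick. In CCR7+ DCs it stood at 878 CPM in the 89 cells of NTT and 1242 in the 81 of RTT_PTGS12KO, while the 12 cells of RTT held 77 UMIs and the 14 of RTT_ROSA26 held 22.

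Cxcl10, the other interferon-induced ligand of CXCR3, reached 865 CPM over all cells of NTT (858 to 872) and 141 of RTT (139 to 143), and 105 of RTT_ROSA26 (103 to 107) and 934 of RTT_PTGS12KO (929 to 939). The loads gave 843 to 891, 131 to 147, 93.7 to 122 and 918 to 948 CPM, so high and low tumours did not overlap here either. The log2 ratio was 2.62 (2.59 to 2.64) for the naive contrast, 3.15 (3.12 to 3.18) for the knockout contrast and -0.42 (-0.46 to -0.39) for the yardstick. Monocytes held 89.5% of its UMIs in NTT, but macrophages held most in RTT (63.6%), RTT_ROSA26 (74.3%) and RTT_PTGS12KO (63.1%). Macrophages held 97739274 of the 116698483 UMIs of RTT and 99600732 of the 110210969 of RTT_ROSA26. Their shares of Cxcl10 in these tumours thus lie below their share of all UMIs.

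Among the types with at least 20 cells, Infl_Mono, 1 of the monocyte names, had the highest Cxcl10 level in each tumour, at 2044 CPM in NTT and 1871 in RTT, and 2957 in RTT_ROSA26 and 2410.5 in RTT_PTGS12KO. It was followed in NTT by TAM_H2Ab1 (821) and CCR7+ DCs (805), whose intervals overlapped, and in RTT_PTGS12KO by TAM_H2Ab1 (1264) and TAM_cycling (1254), whose intervals overlapped too. Within macrophages Cxcl10 stood at 711, 107, 86.5 and 962 CPM in NTT, RTT, RTT_ROSA26 and RTT_PTGS12KO. The knockout exceeded RTT_ROSA26 in each well-filled macrophage name, with log2 ratios of 3.14 (3.08 to 3.20) in TAM_C1q, 3.83 (3.73 to 3.94) in TAM_Spp1, 3.40 (3.35 to 3.44) in TAM_cycling and 2.77 (2.55 to 2.99) in Ctsk_Macro. In the same cells the yardstick gave -0.32, -0.74, -0.53 and -0.35. Ctsk_Macro of the knockout stood at 176 CPM, below the 293 CPM of its NK cells, taken as background for Cxcl10. The ratio in Ctsk_Macro is therefore not set apart from that background. For the naive contrast the ratio was 2.08 (1.98 to 2.19) in TAM_cycling, 1.18 (0.69 to 1.62) in TAM_Spp1, from 20 cells of NTT, and 0.15 (0.015 to 0.28) in TAM_H2Ab1, the name of most macrophages of NTT.

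Within monocytes, Cxcl10 did not follow that order: it stood at 1041 CPM in NTT and 919 in RTT, and 2126 in RTT_ROSA26 and 1026 in RTT_PTGS12KO. Its log2 ratio was 0.18 (0.14 to 0.22) for the naive contrast, -1.05 (-1.11 to -0.99) for the knockout contrast and 1.21 (1.14 to 1.29) for the yardstick. Infl_Mono made up 59.7% of the 144 monocytes of RTT_ROSA26 and 15.8% to 26.4% of those of the other tumours. Within single names the difference for the knockout was smaller, -0.29 (-0.37 to -0.22) in Infl_Mono and -0.32 (-0.46 to -0.18) in Monocyte_1. Placement by marker UMIs turned the ratio to 1.21 for the knockout and to -0.33 for the yardstick, so the direction within monocytes depends on how a monocyte is defined.

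After thinning, Cxcl10 was found in 54.9% of macrophages of NTT and 10.6% of RTT, and 10.7% of RTT_ROSA26 and 38.7% of RTT_PTGS12KO (74.4%, 22.6%, 25.0% and 56.0% unthinned). The NK cells of NTT gave 11.2%, those of RTT_PTGS12KO 13.6%, and 0 of 23 of those of RTT_ROSA26 held a UMI, which allows up to 13.04% by the limit of 3 counts. The shares in RTT and RTT_ROSA26 macrophages are thus not above that of NK cells in the high tumours. By level, NK cells held 86.3 CPM of Cxcl10 in NTT, 8.70 in RTT_ROSA26, from 4 UMIs, and 293 in RTT_PTGS12KO, and 70 UMIs were counted in the 13 NK cells of RTT. The 86.5 CPM of RTT_ROSA26 macrophages thus lies above the NK level of its own tumour but not above that of the high tumours. In monocytes the shares were 53.6%, 37.3%, 43.5% and 49.4% (64.9%, 47.1%, 46.5% and 63.0% unthinned). Cxcl9 and Cxcl10 were found together in 25.2% of macrophages of NTT and 11.5% of those of RTT_PTGS12KO, where the product of the single shares is 19.6% and 7.12%. In monocytes they were found together in 29.8% and 33.8% of the cells of these tumours, beside products of 27.3% and 30.2%.

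Cxcl16, the membrane-bound ligand of CXCR6, was detected broadly and differed little between tumours. It stood at 489 CPM in NTT (484 to 495) and 411 in RTT (407 to 414), and 414 in RTT_ROSA26 (410 to 418) and 438 in RTT_PTGS12KO (434 to 441). The log2 ratio was 0.25 (0.23 to 0.27) for the naive contrast, 0.08 (0.06 to 0.10) for the knockout and 0.01 (-0.01 to 0.03) for the yardstick. The cells that held it differed more than its level: monocytes held 84.4% of its UMIs in NTT and macrophages 89.9% in RTT, 93.8% in RTT_ROSA26 and 67.4% in RTT_PTGS12KO. In each tumour the top 10% of cells held only 28.3% to 33.8% of its UMIs.

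CCR7+ DCs had the highest Cxcl16 level in NTT (909 CPM) and RTT_PTGS12KO (834), followed by TAM_H2Ab1 (860.1 and 610.4), and in NTT the intervals of these overlapped. In TAM_C1q it stood at 501 CPM in RTT, 534 in RTT_ROSA26 and 535 in RTT_PTGS12KO, and the log2 ratio for the knockout was 0.003 (-0.03 to 0.04). Within macrophages as a whole the ratio for the naive contrast was 0.67 (0.62 to 0.73), and within monocytes it was -0.06 (-0.12 to -0.01), which placement by marker UMIs turned to 0.61. Thinned, Cxcl16 was found in 82.0%, 69.1%, 63.8% and 70.4% of macrophages of NTT, RTT, RTT_ROSA26 and RTT_PTGS12KO (97.4%, 93.9%, 88.1% and 95.4% unthinned), against 6.95% of NK cells in NTT, 8.64% in RTT_PTGS12KO and 17.4% in RTT_ROSA26, where 4 of 23 cells held a UMI.

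Ccl5, a chemokine for T cells and monocytes, showed the widest range between tumours of the ligands made by myeloid cells. It stood at 2272 CPM over all cells of NTT (2260 to 2283) and 76.3 of RTT (74.7 to 77.9), and 54.5 of RTT_ROSA26 (53.2 to 55.9) and 349 of RTT_PTGS12KO (346 to 352). NTT was 29.8-fold above RTT, a log2 ratio of 4.90 (4.86 to 4.93), and RTT_PTGS12KO was 6.40-fold above RTT_ROSA26, a log2 ratio of 2.68 (2.64 to 2.72). The yardstick gave -0.48 (-0.53 to -0.44). The high tumours thus differed from each other in Ccl5, whereas their levels of Cxcl9 and Cxcl10 lay closer.

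Monocytes held 75.0% of Ccl5 UMIs in NTT and 62.3% in RTT_PTGS12KO, and macrophages 44.1% in RTT and 68.5% in RTT_ROSA26. Both macrophage shares lie below the share of all UMIs that macrophages held there. NK cells held 16.6% in NTT and 13.3% in RTT_PTGS12KO. CCR7+ DCs had the highest level where they numbered at least 20, at 7542 CPM in NTT and 4870 in RTT_PTGS12KO, and the 12 and 14 such cells of RTT and RTT_ROSA26 held 512 and 634 UMIs. These few cells made 5.75% and 10.5% of the Ccl5 UMIs of RTT and RTT_ROSA26. NK cells followed at 3652 CPM in NTT and 1289 in RTT_PTGS12KO, with 513 in the 26 cells of RTT_ROSA26 and 227 UMIs in the 13 of RTT. The cells named NK differ between tumours: the 7 NK cell markers summed to 12004 CPM in them in NTT, 4049.6 in RTT_ROSA26 and 7732 in RTT_PTGS12KO, and the macrophage markers to 1150, 8071 and 1357 CPM, and the part of this in the Ccl5 level was not tested.

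Within monocytes, Ccl5 stood at 2289.7 CPM in NTT and 674 in RTT, and 168 in RTT_ROSA26 and 765 in RTT_PTGS12KO. Its log2 ratio was 1.76 (1.71 to 1.81) for the naive contrast and 2.19 (1.97 to 2.42) for the knockout, but the yardstick was nearly as large, at -2.01 (-2.24 to -1.78). Within Monocyte_1 these ratios were 1.67 (1.62 to 1.72), 1.58 (1.31 to 1.86) and -1.55 (-1.83 to -1.27). With placement by marker UMIs the ratios over all monocytes became 1.76, 4.10 and -3.69. The summed level of the 7 NK cell markers in monocytes moved with Ccl5, at 155, 88.9, 54.9 and 106 CPM in NTT, RTT, RTT_ROSA26 and RTT_PTGS12KO, with Ncr1, Eomes and Prf1 at 0 in RTT and these and Klre1 at 0 in RTT_ROSA26. The 7 T cell markers summed to 0.998 to 3.26 CPM, with Cd3e, Cd8a and Trac at 0 in RTT and all but Trbc2 at 0 in RTT_ROSA26. Without monocytes that held at least 3 UMIs of these markers, Ccl5 stood at 2557, 676, 160 and 786 CPM. The cells kept can still hold lymphocyte RNA under that limit, so this does not set it apart, and its part was not tested.

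Within macrophages, Ccl5 stood at 970.4 CPM in NTT and 40.2 in RTT, and 41.4 in RTT_ROSA26 and 81.8 in RTT_PTGS12KO. NTT stood apart, with a log2 ratio of 4.59 (4.53 to 4.66) against RTT, and it was 4.01 (3.85 to 4.17) in TAM_cycling and 4.12 (3.82 to 4.41) in TAM_Spp1, from 20 cells of NTT. In TAM_H2Ab1, 62.3% of the macrophages of NTT and 0.936% of those of RTT, it was 0.69 (0.58 to 0.81), from 1445 and 893 CPM. Without macrophages that held at least 3 lymphocyte marker UMIs the levels were 1135, 37.7, 41.4 and 67.3 CPM. For the knockout the ratio was 0.98 (0.93 to 1.04), just under 2-fold, and it was 1.08 with TMM factors, 0.70 without those cells and 2.26 with placement by marker UMIs. By name it was 1.04 (0.95 to 1.12) in TAM_cycling, 0.20 (0.08 to 0.31) in TAM_C1q, -0.18 (-0.35 to -0.01) in TAM_Spp1 and 2.19 (1.92 to 2.46) in Ctsk_Macro, from 90.7 and 19.9 CPM. The summed NK cell markers in macrophages were 127, 11.1, 7.74 and 30.4 CPM in the same order, with all 7 detected in each tumour, and their part in the remainder was not tested. The summed T cell markers were 2.14 to 3.20 CPM. After thinning, Ccl5 was found in 40.5% of macrophages of NTT and in 5.47%, 5.02% and 9.09% of those of RTT, RTT_ROSA26 and RTT_PTGS12KO (59.1%, 18.5%, 19.0% and 28.7% unthinned). TAM_C1q cells, themselves macrophages and taken as background for lymphocyte genes, gave 5.51%, 5.15% and 7.73% in the last 3 tumours.

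**Figure D3:**
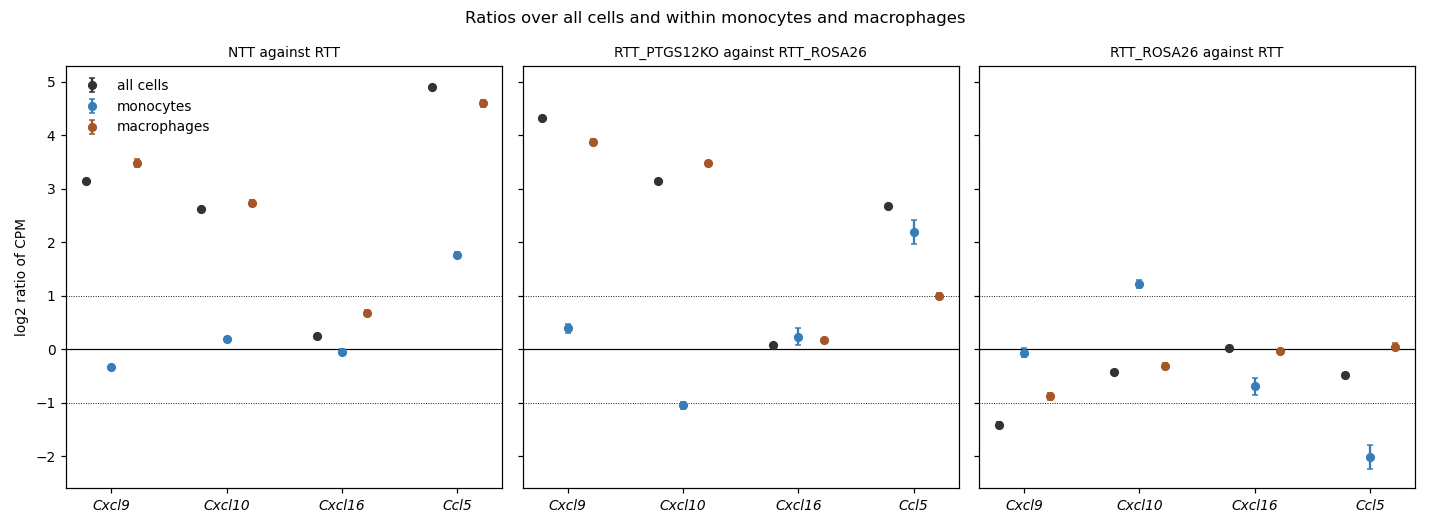
Log2 ratios of CPM for Cxcl9, Cxcl10, Cxcl16 and Ccl5 over all cells, in monocytes and in macrophages, 1 panel per contrast, with exact 95% intervals for counting error and dotted lines at 2-fold. Cxcl9 and Cxcl10 lie above 2.5 over all cells and in macrophages in the first and second panels but below 0.5 in monocytes, and Ccl5 lies above 1.5 in all 3 groups of cells in the first panel.

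Within monocytes the members that differed by 2-fold in any contrast were Ccl5 and Cxcl10, and within macrophages Cxcl9, Cxcl10 and Ccl5. In macrophages 4 genes passed the minimum, and 3 (Cxcl9, Cxcl10 and Ccl5) were at least 2-fold higher in NTT than in RTT, where 8.89% of genes differed (5.35% higher and 3.54% lower). This count compares macrophages made up of different names, and within TAM_H2Ab1 0 of these 3 was 2-fold higher in NTT. For the knockout 2 of 4 (Cxcl9 and Cxcl10) were higher, where 3.34% of genes differed (2.37% higher and 0.974% lower). For the yardstick 0 of 4 differed, where 1.3% of genes did (0.581% higher and 0.723% lower). In monocytes 1 of 4 (Ccl5) was higher in NTT than in RTT, where 3.32% of genes differed (1.85% higher and 1.48% lower). For the knockout 2 of 4 differed (Ccl5 higher and Cxcl10 lower, against 3.98% of genes, 1.83% higher and 2.15% lower), and for the yardstick 2 of 4 (Cxcl10 higher and Ccl5 lower, against 3.71%, 1.86% higher and 1.85% lower). The medians of the 4 members were 3.11, 2.23 and -0.17 in macrophages and 0.06, 0.31 and -0.38 in monocytes, beside -0.09 to 0.06 over all genes in either class. The last pair of monocyte counts thus rests on RTT_ROSA26, whose 144 monocytes are the fewest.

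To set cell numbers apart from levels, the all-cell level was recomputed with the cell type mixture of one tumour and the levels of the other. For Cxcl9, the mixture of NTT with the levels of RTT gave 1089.7 CPM, above the 864 of NTT itself. For Cxcl10 it gave 709 CPM beside the 865 of NTT, and for Ccl5 1014 CPM beside 2272. These values rest on the levels of the monocyte names of RTT, of whose 522 cells 357 are placed with the macrophages by marker UMIs, and they were not recomputed under that placement. The reverse, the mixture of RTT with the levels of NTT, gave 172 CPM for Cxcl9 beside the 97.7 of RTT, 272 for Cxcl10 beside 141 and 368 for Ccl5 beside 76.3. A type with under 20 cells in the tumour that gave the levels kept the level of the tumour that gave the mixture. Such types covered 14.3% of the UMIs of the NTT mixture but 55.2% of those of the RTT mixture, TAM_C1q among the latter. By UMIs the reverse is thus the less complete of the recomputations. In the NTT mixture they included NK cells, T cells and CCR7+ DCs, of which RTT held 13, 1 and 12. CCR7+ DCs and NK cells had the highest Ccl5 levels of NTT, so the 1014 CPM still holds NTT levels in these cells.

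In the knockout contrast the recomputed values of the CXCR3 ligands differed. The mixture of the knockout with the levels of RTT_ROSA26 gave Cxcl9 702 CPM, near the 733 of the knockout, and the reverse gave 309 against 36.8 in RTT_ROSA26. The first of these rests on the 54 Monocyte_1 cells of RTT_ROSA26 at 2439.7 CPM, a name that held 24.9% of the UMIs of the knockout, and the split was not recomputed with monocytes placed by marker UMIs. For Cxcl10 the mixture alone gave 470.4 CPM and the levels alone 870.0, near the 934 of the knockout. Ccl5 went from 54.5 to 159 with the mixture and to 83.5 with the levels, out of 349. Types kept at their own values covered 5.71% of the UMIs of the knockout, CCR7+ DCs and T cells among them, and 0.276% of those of RTT_ROSA26.

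**Figure D4:**
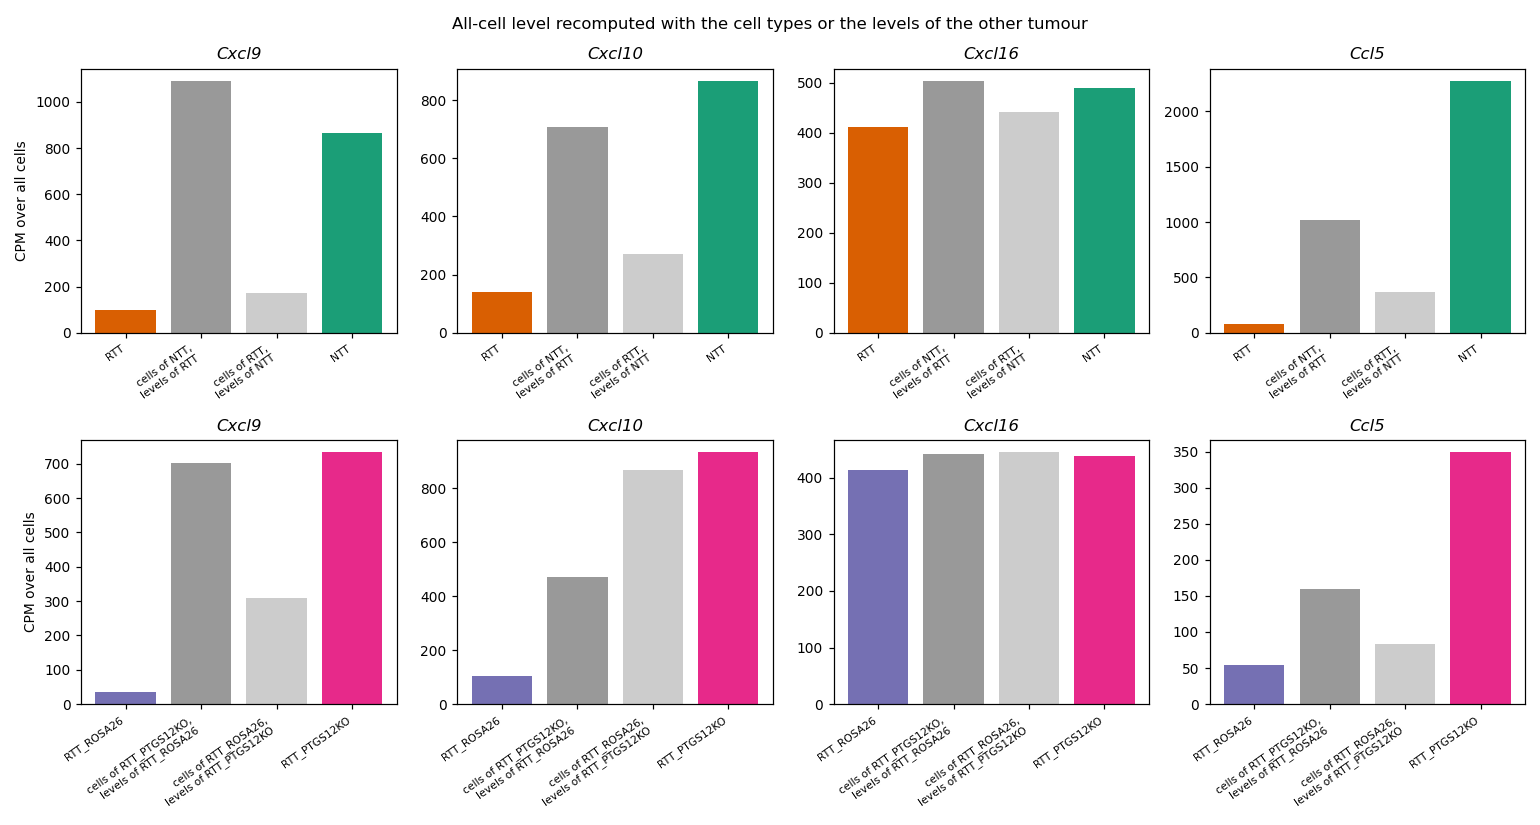
All-cell level (CPM) of Cxcl9, Cxcl10, Cxcl16 and Ccl5 in each tumour of a contrast (coloured bars) and recomputed with the cell type mixture of one tumour and the levels of the other (grey bars), with NTT and RTT in the upper row and RTT_PTGS12KO and RTT_ROSA26 in the lower row. For Cxcl10 in the lower row the bar with the levels of RTT_PTGS12KO, at 870.0, is the taller grey bar, whereas for Cxcl9 it is the bar with its cells, at 702.

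Xcl1, the ligand of XCR1 on cDC1s, was held by lymphocytes. It stood at 70.3 CPM over all cells of NTT (68.4 to 72.3) and 1.59 of RTT (1.37 to 1.84), and 2.60 of RTT_ROSA26 (2.30 to 2.91) and 35.7 of RTT_PTGS12KO (34.7 to 36.7). NTT was 44.1-fold above RTT, a log2 ratio of 5.46 (5.25 to 5.68), and RTT_PTGS12KO 13.8-fold above RTT_ROSA26, a log2 ratio of 3.78 (3.61 to 3.96), and the yardstick was 0.70 (0.43 to 0.98). The loads spread widely, from 50.4 to 93.9 CPM in NTT and 25.9 to 47.7 in RTT_PTGS12KO, but did not reach the low tumours. With NK and T cells left out, the log2 ratio for the naive contrast turned to -0.34 and that for the knockout dropped to 0.77, so both rested largely on these cells. Of the UMIs then left in RTT, 66 lay in 1 macrophage.

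NK cells held 61.6% of Xcl1 UMIs in NTT, 81.5% in RTT_ROSA26 and 65.3% in RTT_PTGS12KO, and T cells held 37.2% in NTT and 32.5% in RTT_PTGS12KO. Within NK cells it stood at 420.0 CPM in the 709 cells of NTT (405 to 435), 507 in the 26 of RTT_ROSA26 (444 to 576) and 648 in the 306 of RTT_PTGS12KO (627 to 671), while the 13 of RTT held 21 UMIs. The level in NK cells was thus not lower in RTT_ROSA26 and RTT_PTGS12KO than in NTT. It was lower in the 13 NK cells of RTT, where the 21 UMIs lay among 226800 in all. The summed macrophage markers in the cells named NK were 1150, 15022, 8071 and 1357 CPM in NTT, RTT, RTT_ROSA26 and RTT_PTGS12KO. Their part in the Xcl1 level was not tested. T cells stood higher, at 1162 CPM in NTT (1109 to 1217) and 1474 in RTT_PTGS12KO (1404 to 1545), and the single T cell of RTT held 22 UMIs. In RTT, macrophages held 70.4% of the Xcl1 UMIs, but 66 of these 131 UMIs lay in 1 cell and 82 in the 53 cells with at least 3 lymphocyte marker UMIs.

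After thinning, Xcl1 was found in 30.6% of NK cells of NTT, 47.8% of RTT_ROSA26 and 35.9% of RTT_PTGS12KO (39.2%, 61.5% and 54.9% unthinned), which left out 33, 3 and 5 cells. In T cells it was found in 39.1% of NTT and 55.6% of RTT_PTGS12KO (49.5% and 66.7% unthinned). TAM_C1q cells gave 0.0896% to 0.193% in the tumours where they were counted, with median depths of 13182 to 14062 UMIs against 12453 and 19994 in the T cells. Xcr1, the receptor, was found in cDC1s at 289.6 CPM in the 32 cells of NTT and 296 in the 37 of RTT_PTGS12KO, and RTT and RTT_ROSA26 held 7 and 10 cDC1s.

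Ccl22 and Ccl17, the ligands of CCR4, were low over all cells, and their levels were highest in dendritic cells in each tumour. Ccl22 stood at 7.99 CPM over all cells of NTT and 1.43 of RTT, and 0.798 of RTT_ROSA26 and 7.93 of RTT_PTGS12KO, from 554, 167, 88 and 1165 UMIs. As log2 ratios these were 2.48 (2.23 to 2.74) for the naive contrast, 3.31 (2.9993 to 3.64) for the knockout and -0.84 (-1.23 to -0.46) for the yardstick. Ccl17 stood at 3.61, 2.13, 2.20 and 11.2 CPM, from 250, 248, 242 and 1639 UMIs, so only RTT_PTGS12KO was high. Its log2 ratio was 0.76 (0.50 to 1.02) for the naive contrast, 2.35 (2.15 to 2.55) for the knockout and 0.05 (-0.21 to 0.31) for the yardstick.

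CCR7+ DCs held 74.5% of Ccl22 UMIs in NTT and 44.3% in RTT, and 33.0% in RTT_ROSA26 and 76.6% in RTT_PTGS12KO, from 89, 12, 14 and 81 cells. The level in them was 652 CPM in NTT (591 to 718) and 1194 in RTT_PTGS12KO (1117 to 1275), and 558 and 1108 without the top cell of each. The 12 cells of RTT held 74 UMIs and the 14 of RTT_ROSA26 held 29. In cDC2s Ccl22 stood at 37.5, 9.87, 9.12 and 30.0 CPM in NTT, RTT, RTT_ROSA26 and RTT_PTGS12KO, with a log2 ratio of 1.93 (1.23 to 2.69) for the naive contrast and 1.72 (1.08 to 2.41) for the knockout.

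Ccl17 lay mainly in cDC2s and CCR7+ DCs in NTT and RTT_PTGS12KO, but not in RTT and RTT_ROSA26, and rested on few cells. The cDC2s held 48.4% of its UMIs in NTT and 36.3% in RTT, and 23.6% in RTT_ROSA26 and 40.8% in RTT_PTGS12KO. The CCR7+ DCs held 34.8%, 2.42%, 7.44% and 27.7% in the same order, and macrophages 0.8%, 30.6%, 67.4% and 8.72%. In cDC2s it stood at 51.6 CPM in NTT and 42.3 in RTT, and 20.8 in RTT_ROSA26 and 191 in RTT_PTGS12KO, and 35.1, 29.3, 15.01 and 152 without the top cell of each, so the knockout stayed highest. The log2 ratio in cDC2s was 0.29 (-0.12 to 0.70) for the naive contrast, 3.20 (2.81 to 3.62) for the knockout and -1.02 (-1.53 to -0.53) for the yardstick. In CCR7+ DCs it stood at 137 CPM in NTT and 608 in RTT_PTGS12KO, or 112 and 505 without the top cell. Outside dendritic cells 1 cell often held most of the UMIs: all 76 Ccl17 UMIs of RTT monocytes lay in 1 cell, 65 of the 104 UMIs of TAM_cycling in RTT_ROSA26 lay in 1 cell, and 135 of the 225 UMIs of Macro in RTT_PTGS12KO lay in 1 cell. In other types it did not: the 120 UMIs of Monocyte_1 in RTT_PTGS12KO lay in 17 cells, with 36 in the top cell. Over all macrophages the top cell held 26 of 76 UMIs for RTT and 65 of 163 for RTT_ROSA26, and for the knockout 69 of 143.

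Ccl17 was found in dendritic cells that also held Ccl22. After thinning, which left out 2 and 4 cells, Ccl22 was found in 60.9% of CCR7+ DCs of NTT and 81.8% of RTT_PTGS12KO (76.4% and 85.2% unthinned), and Ccl17 in 18.4% and 32.5% (25.8% and 45.7% unthinned). Both were found together in 17.2% and 32.5%, beside products of 11.2% and 26.6%. Ccl22 was found in 93.8% of the 16 Ccl17-positive cells of NTT and 100% of the 25 of RTT_PTGS12KO, against 53.5% and 73.1% of the rest. NK cells gave 0% and 0.664% for Ccl22 and 0.148% and 0.332% for Ccl17, where 0 of 676 cells in NTT allows a share of cells with a UMI of up to 0.444% by the limit of 3 counts.

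Cxcr3, the receptor of CXCL9 and CXCL10, was sparsely detected. It stood at 3.14 CPM over all cells of NTT (2.74 to 3.59) and 1.18 of RTT (0.993 to 1.40), and 1.23 of RTT_ROSA26 (1.04 to 1.46) and 0.960 of RTT_PTGS12KO (0.808 to 1.13), from 218, 138, 136 and 141 UMIs. NTT was higher than RTT, with a log2 ratio of 1.41 (1.10 to 1.73), while the knockout lay slightly under RTT_ROSA26, at -0.36 (-0.71 to -0.01), and the yardstick was 0.06 (-0.29 to 0.41). With NK and T cells left out, the log2 ratio for the naive contrast turned to -0.14. The cells that held Cxcr3 differed: NK cells held 39.9% and T cells 31.7% of its UMIs in NTT, and 39.0% and 23.4% in RTT_PTGS12KO, whereas macrophages held 74.6% in RTT and 88.2% in RTT_ROSA26. Both macrophage shares lie below the share of all UMIs that macrophages held there.

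The level of Cxcr3 was highest in T cells, at 44.2 CPM in NTT (34.4 to 56.0) and 28.5 in RTT_PTGS12KO (19.6 to 40.1), followed by cDC1s, at 19.3 and 18.5 CPM from 9 and 10 UMIs, and NK cells, at 12.2 and 10.4 CPM. The intervals of T cells and cDC1s overlapped in both tumours, and so did those of cDC1s and NK cells. In macrophages it stood at only 1.05 CPM in RTT and 1.20 in RTT_ROSA26, and 0.345 in RTT_PTGS12KO, where 103, 120 and 31 UMIs were counted. Thinned, it was found in 13.04% of T cells in NTT and 2.22% in RTT_PTGS12KO (44.1% and 33.3% unthinned), the latter being 1 of 45 cells, and in 5.33% and 3.65% of NK cells (9.87% and 12.1% unthinned). Thinned to 5000 UMIs the T cell shares were 15.3% and 17.8%, so no order of these tumours is read from them. TAM_C1q cells gave 0.147% in RTT, 0.538% in RTT_ROSA26 and 0.0644% in RTT_PTGS12KO, and since they are part of the macrophages they give no separate background for them.

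Cxcr6, the receptor of CXCL16, lay mainly in NK and T cells in NTT and RTT_PTGS12KO. It stood at 1.85 CPM over all cells of NTT (1.54 to 2.20) and 0.163 of RTT (0.0980 to 0.254), and 0.118 of RTT_ROSA26 (0.0628 to 0.202) and 0.531 of RTT_PTGS12KO (0.420 to 0.663), from 128, 19, 13 and 78 UMIs. The log2 ratio was 3.50 (2.80 to 4.28) for the naive contrast, 2.17 (1.31 to 3.14) for the knockout and -0.46 (-1.60 to 0.63) for the yardstick. NK and T cells held 60.2% and 35.9% of its UMIs in NTT, and 19.2% and 62.8% in RTT_PTGS12KO. In RTT 12 of its 19 UMIs and in RTT_ROSA26 9 of its 13 lay in macrophages, which held 83.8% and 90.4% of all UMIs there, and 1 and 2 lay in T cells. In T cells it stood at 29.5 CPM in NTT (21.6 to 39.3) and 42.3 in RTT_PTGS12KO (31.3 to 56.0), and in NK cells at 10.8 and 2.84 CPM, with 0 UMIs in the 13 NK cells of RTT and the 26 of RTT_ROSA26, which allows up to 13.2 and 6.52 CPM by the limit of 3 counts. Thinned, it was found in 9.78% and 13.3% of T cells (34.4% and 44.4% unthinned), against at most 0.0896% of TAM_C1q cells. Thinned to 5000 UMIs these T cell shares were 22.4% and 20.0%, in the opposite order. With NK and T cells left out, the log2 ratios turned to -0.91 for the naive contrast and -0.01 for the knockout.

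Of 9 further genes of these ligand and receptor systems (Ccr1, Ccr3, Ccr4, Xcr1, Dpp4, Adam10, Adam17, Ackr1 and Ackr2), 3 passed the minimum in each contrast, over all cells, in monocytes and in macrophages. Of these, 0 of 3 differed by 2-fold, with medians of -0.11, -0.15 and 0.15 over all cells. Ccr1, a receptor of CCL5, stood at 431, 463, 405 and 366 CPM in NTT, RTT, RTT_ROSA26 and RTT_PTGS12KO, highest in neutrophils among the cell types. Adam10, which sheds CXCL16, stood at 58.5, 90.4, 106 and 88.7 CPM. Ccr4, the receptor of CCL17 and CCL22, was counted at 0.0144 CPM in NTT, from 1 UMI in a T cell, and at 0 UMIs in the other tumours, which allows up to 0.0204 to 0.0272 CPM there by the same limit, with 1, 2 and 45 T cells in RTT, RTT_ROSA26 and RTT_PTGS12KO.

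Interferon-gamma and NF-kB signalling induce the CXCR3 ligands. Of 11 genes of these pathways, all passed over all cells in the naive and knockout contrasts. Of these, 5 of 11 were at least 2-fold higher in NTT than in RTT (Ifng, Jak2, Irf1, Irf8 and Relb) and 3 of 11 were higher in the knockout (Ifng, Irf1 and Irf8). For the yardstick 1 of 10, Irf1, was lower in RTT_ROSA26. Medians over the list were 0.68, 0.40 and -0.08. Within macrophages 3 of 10 (Jak2, Irf1 and Irf8), 2 of 10 (Irf1 and Irf8) and 1 of 10 (Irf1, lower) differed, and within monocytes 0 of 10 did in each contrast. Over all genes 7.44% were higher in the naive and 3.68% in the knockout contrast and 1.09% lower in the yardstick, and within macrophages 5.35%, 2.37% and 0.723%. Some of these genes also mark cell types, such as Relb for CCR7+ DCs and Irf8 for cDC1s, and their part in the all-cell values was not tested. Ifng, the cytokine itself, stood at 64.6 CPM in NTT and 0.608 in RTT, and 0.653 in RTT_ROSA26 and 72.4 in RTT_PTGS12KO, and was highest in T cells. Irf1, a transcription factor induced by interferon, stood at 346, 104, 32.5 and 242 CPM, and Irf8, a factor of myeloid cells, at 377.1, 131, 125 and 317 CPM. Of the remaining genes over 100 CPM in a tumour, Ifngr1 stood at 162, 203, 159.7 and 119 CPM, Jak1 at 141, 112, 115 and 120.2 CPM, Tnf, which was highest in RTT, at 86.5, 146, 81.1 and 48.3 CPM, and Nfkb1 at 104, 64.8, 62.2 and 81.9 CPM.

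Of 21 other chemokines and receptors of lymphocytes measured, 7 passed over all cells for the naive contrast, and 2 were higher (Ccr2 and Ccr7) and 2 lower (Ccl8 and Cx3cr1). For the knockout and the yardstick 0 of 6 differed. Their medians were -0.23, -0.39 and 0.14, and over all genes 14.1%, 5.76% and 1.6% differed either way. Within macrophages 1 of 6, Ccl8, was higher in the knockout and none differed in the other contrasts. Within monocytes Ccl8 and Cx3cr1 were lower in NTT, Cxcr4 was lower in the knockout, and for the yardstick Ccl4 and Ccr2 were higher and Ccl8 lower, that is 2, 1 and 3 of 6, where 3.32%, 3.98% and 3.71% of all genes differed. In macrophages these shares were 8.89%, 3.34% and 1.3%. The chemokines Ccl4 and Ccl3 stood at 1069.9, 687, 801 and 692.5 CPM and at 348, 443, 405 and 231 CPM, led by neutrophils, and so were not lower in RTT and RTT_ROSA26 in the way Ccl5 was. Ccr2, which brings monocytes from blood, stood at 320.2, 141, 181 and 336 CPM, Ccl8 at 128, 299, 234 and 364 CPM, and Cx3cr1 at 18.1, 139, 260.4 and 131 CPM.

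Pattern likeness was described as Pearson's r of log2(CPM + 1) over the 47 pairs of cell type and tumour with at least 30 cells, among 10752 genes. The pairs share droplets, libraries and cell names, so r is a description without a p. Nearest to Cxcl9 were Gbp5 (0.87), Psme2 (0.86), Slco3a1 (0.85), Psme1 (0.84) and Gbp2 (0.84), and nearest to Cxcl10 were Nampt (0.86), Il27 (0.85), Gbp3 (0.84), Gbp2 (0.83) and Gbp5 (0.82). Cxcl9 and Cxcl10 reached 0.80 with each other. Nearest to Cxcl16 were Ctsh (0.91), Lpcat2 (0.88), Ctss (0.88), Cd86 (0.88) and Basp1 (0.87), and nearest to Ccl5 were H2-Q4, H2-Q7, H2-Q6, AW112010 and H2-T22 (0.81 to 0.85). Ccl22 and Ccl17 were each other's nearest gene (0.89), followed for Ccl22 by Strip2, Ttll9, Adam23 and Spib (0.85 to 0.88) and for Ccl17 by Ramp3, Timd4, Spib and Ccr6 (0.77 to 0.81). Xcl1 lay nearest to Gpr174, Camk4, Sytl3, Sh2d1a and Cd160 (each 0.97). Cxcr6 lay nearest to Cd3g (0.98), Ifng, Ehd3, Cd160 and Cd3d (0.96 each), and to Xcl1 at 0.92 among the 9. Cxcr3 lay nearest to Klk8, Nefh, Zdhhc2, Utf1 and Srsf2 (0.75 to 0.79), at levels of few UMIs.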

How the data were processed

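CD45+ cells of 4 samples, 1 per group as the labels assign them, were sequenced by 3′ droplet RNA sequencing. The authors aligned the reads with Cell Ranger to mm10 and processed the cells with Seurat 4.3.0, per the submitters' processing notes. Their filters asked for more than 1000 genes per cell and allowed at most 15% mitochondrial and 40% ribosomal reads. They named the cell types, and deposited UMI counts per gene and cell, used here unchanged. Cell types and samples were taken from their cell table, so no cell was filtered or clustered again.

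UMI counts were summed per gene, sample and cell type or class and divided by the summed total (Python 3.11.15, numpy 2.4.6, scipy 1.17.1, pandas 2.3.3, matplotlib 3.10.9). Ratios carry no pseudocount. Levels were computed for types with at least 20 cells and otherwise given as UMIs. TMM factors of edgeR 4.0.16 in R 4.3.3 served as an alternative scaling only. On simulated counts with counting error alone and 200 genes changed by known folds over 2-fold, 100% of them were recovered for NTT against RTT among 7043 genes. That outcome followed from the settings and checks the arithmetic only, since no spread between mice was simulated. Depth runs from 69332486 to 146829369 UMIs per sample. The 9 genes and the lists of partners, inducers and other chemokines were chosen with earlier results of these data known. The text gives values for every member and for genes of those lists that differed by 2-fold in both main contrasts or exceeded 100 CPM in a tumour, counts for the rest, and the 5 genes nearest to each member by correlation. Alternatives were TMM scaling, a denominator without mitochondrial and ribosomal genes, pseudocounts of 1 and 10 CPM, no minimum level, stricter cell filters, removal of cells over 2 times their type's median UMIs, Macro counted as macrophages, thinning to 5000 UMIs and placement by marker UMIs. The sums without NK and T cells, with Monocyte_1 cells alone and without cells holding lymphocyte marker UMIs were added after seeing the data. Cxcl11 was not analysed here, and 2 genes of the lists are not reported here.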

Additional observations from a re-analysis of the deposited data

Results flagged for a closer look

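For 4 pairs of values the sign in monocytes was opposite to that in macrophages and both 95% intervals for counting error left out 0, and in each pair the difference was not tested, since each group has 1 sample. Cxcl9 for NTT against RTT had a log2 ratio of -0.33 in monocytes and 3.48 in macrophages. Cxcl16 for NTT against RTT had -0.061 in monocytes and 0.67 in macrophages. Cxcl10 for RTT_PTGS12KO against RTT_ROSA26 had -1.05 in monocytes and 3.47 in macrophages. Cxcl10 for RTT_ROSA26 against RTT had 1.21 in monocytes and -0.31 in macrophages. In each pair the monocyte value turned to the sign of the macrophage value under placement by marker UMIs.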

How the results depend on the processing

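No paired analysis was possible because the groups have 1 sample each. Of 84 counts of members that differed by 2-fold under an alternative, 68 lay within 1.5 times the reported count. Without a minimum level the counts were 7 of NTT against RTT and 7 of the knockout over all cells, 5, 6 and 6 in monocytes and 5, 4 and 2 in macrophages, for NTT against RTT, the knockout and the yardstick, because genes of few UMIs then enter. In monocytes the knockout's count was 1 with TMM factors, 1 without cells over 2 times the median UMIs, 1 with Monocyte_1 alone and 4 with placement by marker UMIs, and the count for NTT against RTT was 2 with a denominator without mitochondrial and ribosomal genes and 2 with Monocyte_1 alone. In macrophages the yardstick's count was 1 (Cxcl9 lower) with placement by marker UMIs and 1 without cells holding lymphocyte marker UMIs. The causes were not tested.

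Of the log2 ratios, 13 changed sign. With placement by marker UMIs these were, in monocytes, 0.14 for Cxcl9 and 0.61 for Cxcl16 (NTT against RTT), 1.21 for Cxcl10 (knockout) and -0.33 for Cxcl10 (yardstick). Without NK and T cells, over all cells, they were -0.34 for Xcl1, -0.14 for Cxcr3 and -0.91 for Cxcr6 (NTT against RTT), -0.0077 for Cxcr6 (knockout) and -1.35 for Xcl1 (yardstick). With Monocyte_1 alone they were -0.60 for Cxcl9 and -0.26 for Cxcl16 (knockout). Without cells holding lymphocyte marker UMIs they were 0.38 for Ccl22 in monocytes (NTT against RTT) and 0.26 for Ccl22 in macrophages (yardstick). Over all cells the ratio of Cxcl9 ran from 3.02 to 3.31 for NTT against RTT and from 3.99 to 4.45 for the knockout, that of Cxcl10 from 2.53 to 2.80 and from 3.03 to 3.28, and that of Ccl5 from 4.72 to 5.10 and from 2.47 to 2.82. That of Xcl1 ran from 2.79, with a pseudocount of 10 CPM, to 6.07, without cells over 2 times the median UMIs, and from 1.86 to 3.91, and without NK and T cells it was -0.34 and 0.77. In macrophages Cxcl9 ran from 3.21 to 3.59 and from 3.40 to 4.22, and Cxcl10 from 2.60 to 2.76 and from 3.28 to 3.57. Of the shares, 208 of 398 moved beyond their counting interval, most of them shares of cells with a UMI, which rise with depth. Precision is low for the 144 monocytes and 26 NK cells of RTT_ROSA26 and the 13 NK cells of RTT. Other classes of RTT and RTT_ROSA26 held few cells too: 1 and 2 T cells, 7 and 10 cDC1s and 12 and 14 CCR7+ DCs.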
